A study of Mus musculus with 8 samples.

Results

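The genes for histone variants and for chromatin remodelling in spermatids were examined in day 23 (P23) mouse testis with and without a functional Ctcfl gene. Chosen by name from the symbols in the table of array levels, under older or current symbols, they were 10 genes: Hist1h1t (now H1f6), Hist1h2ba (H2bc1), Hils1, H1fnt (H1f7), H2afx (H2ax), H2afz (H2az1), H2afy (Macroh2a1), H3f3a, H3f3b and Brdt. Of these, 9 had a probe set, out of 22666 genes named in the table, and Hist1h2ba, the testis-specific H2B, had none and was dropped. The 9 genes were covered by 16 of 45101 probe sets, of which 12 named a single gene. Ctcfl, also called BORIS, encodes a germ line paralog of the zinc finger protein CTCF. Total RNA from whole testis was hybridised to Affymetrix Mouse430_2 arrays, a separate array for each sample. Wildtype replicates 1, 2, 4, 6 and 7 made up a group of 5, and Ctcfl mutant replicates 3, 5 and 8 a group of 3. By the study's account, the mutants were homozygous for an allele that lacks exons 1 to 8 of Ctcfl, and its text calls the controls heterozygous littermates whereas the labels call them wildtype. The labelled name is used here, and both groups were of the same age and, per the methods, kept on a C57/Bl6 background.

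Spermatids rebuild their chromatin after meiosis. Testis-specific linker histones and core histone variants loosen the nucleosomes, the remaining histones become acetylated and are bound by BRDT, transition proteins take their place, and protamines finally pack the DNA of the sperm head. The genes of the early steps are already on in spermatocytes, and those of the late steps are transcribed in round spermatids. In the mouse, round spermatids first appear around the third week after birth, so day 23 falls in the first wave of spermatid formation.

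The levels are log2 values, normalised by the authors, and the array medians lay between 6.40 and 6.45. Across all 45101 probe sets 0 passed an adjusted p of 0.05 in the limma fit (0% of the table), 1564 had an unadjusted p under 0.05 (3.47%), and 1216 (2.7%) had groups without any overlap. Wildtype 7 and mutant 8 stood apart from the other 6 arrays irrespective of genotype. Both lay above all of those 6 for 8.6% of probe sets and below all of them for 10.3%. The mean level of 14 spermatid markers was 10.92 on wildtype 7 and 10.57 on mutant 8 against 8.48 to 9.27 on the other arrays, and all 14 were higher on both. For 12 spermatocyte markers, which include the synaptonemal complex genes, the means were 11.20 and 11.05 against 10.95 to 11.13. For 7 fat cell markers they were 7.11 and 7.09 against 5.52 to 6.10, with 5 of the 7 higher on both. Among those 5, Cidec, named after its values were seen, read at most 4.40. That is below every array median, so Cidec is not shown to lie above background. Of 9 spermatogonia, 9 Sertoli cell and 6 Leydig cell markers, 0 were higher on both. The difference between the 3′ and 5′ Gapdh control probe sets was 0.31 and 0.33 against 0.041 to 0.22. For beta-actin it was 1.13 on wildtype 7 and 1.03 on mutant 8 against 0.75 to 1.03, so mutant 8 lay inside the range of the others. In whole testis, fewer cells of a type and less RNA per cell cannot be told apart. Since Ctcfl itself was not analysed here, the levels of the deleted gene gave no check of the genotype labels.

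The sequences upstream of the testis linker histone genes are shown because Hils1 and H1fnt, described next, moved together across the arrays. Hist1h1t is added as the further testis linker histone. They run from 250 bases before to 50 bases after the gene start in RefSeq (GRCm38.p6), 5′ to 3′ on the gene's strand. Promoter sequences were found for 9 of the 10 genes, the exception being H2afx. Capitals mark the letters CCAAT or TGACG, or their reverse complements ATTGG and CGTCA. Hist1h1t lies on the plus strand at chr13:23695561-23695860, Hils1 on the plus strand at chr11:94967343-94967642, and H1fnt on the minus strand at chr15:98257258-98257557.
Hist1h1t: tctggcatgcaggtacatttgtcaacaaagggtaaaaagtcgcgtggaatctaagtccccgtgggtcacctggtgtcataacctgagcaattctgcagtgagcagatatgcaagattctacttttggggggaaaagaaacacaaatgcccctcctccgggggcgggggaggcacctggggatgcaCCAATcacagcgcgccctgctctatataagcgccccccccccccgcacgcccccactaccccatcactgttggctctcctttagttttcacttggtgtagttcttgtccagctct
Hils1: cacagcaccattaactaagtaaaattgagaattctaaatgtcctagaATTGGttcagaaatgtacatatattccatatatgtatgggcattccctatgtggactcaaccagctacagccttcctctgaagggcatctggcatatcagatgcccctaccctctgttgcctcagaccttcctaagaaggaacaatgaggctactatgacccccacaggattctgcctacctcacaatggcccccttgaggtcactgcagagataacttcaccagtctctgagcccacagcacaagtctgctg
H1fnt: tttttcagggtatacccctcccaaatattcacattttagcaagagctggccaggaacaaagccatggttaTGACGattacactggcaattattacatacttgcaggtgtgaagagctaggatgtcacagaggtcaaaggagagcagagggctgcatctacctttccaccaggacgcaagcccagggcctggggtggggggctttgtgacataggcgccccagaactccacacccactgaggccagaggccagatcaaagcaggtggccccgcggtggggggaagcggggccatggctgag

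The TATA box was searched for as TATAAA on both strands. The CCAAT box was searched for as CCAAT. The full cyclic AMP response element was searched for as TGACGTCA. Its shorter form, TGACG, lies within those letters, so a full element would also count as a short one. Hist1h1t held CCAAT at 65 bases before its start, and Hils1 held it on the other strand at 203 bases before its start. H1fnt held TGACG at 180 bases before its start and no CCAAT. None of these 3 windows held TATAAA or TGACGTCA in these letters. Among 32851 RefSeq promoters of the same length, CCAAT was found in 37.4%, TGACG in 20.8%, TATAAA in 13.6% and TGACGTCA in 1.79%. Of the 9 promoters of the histone variant genes and Brdt, 7 held CCAAT, 4 held TGACG, 2 held TATAAA and 0 held TGACGTCA. Hist1h2ba and H3f3b were those with TATAAA, and Hist1h2ba, H1fnt, H2afy and H3f3b those with TGACG. The windows of Hist1h1t, Hils1 and H1fnt had a GC content of 54.7%, 46.7% and 55.7%, against a median of 52.7% over all promoters.

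The members that varied most from array to array were a pair of spermatid linker histones. Hils1, an H1-like protein of elongating spermatids, and H1fnt, the H1T2 linker histone found at the apical side of the spermatid nucleus, were over 2-fold higher on wildtype 7 and mutant 8 than on the other arrays of the same genotype. Neither differed between the genotypes beyond that spread. Hist1h1t, the linker histone that starts in spermatocytes, read near or below the array medians and so is not shown to lie above background.

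Hils1 had levels of 10.54, 10.73, 10.81, 10.83 and 11.98 in wildtype 1, 2, 4, 6 and 7, and of 10.15, 10.66 and 11.71 in mutant 3, 5 and 8. The groups overlapped, and 1 array in each, wildtype 7 and mutant 8, lay well above every other array. Wildtype 7 exceeded the mean of the other 4 wildtype arrays by 1.26, or 2.39-fold, and mutant 8 exceeded the mean of the other 2 mutants by 1.30, or 2.47-fold. The group means were 10.98 ± 0.57 (SD, n = 5) and 10.84 ± 0.79 (SD, n = 3). The difference of mutant minus wildtype was -0.14 (SE 0.38, 95% interval -0.99 to 0.71), with an adjusted p of 1.0 by limma and p = 0.786 by exact two-sided permutation. Because the pair of arrays dominated this spread, genotypes were set against each other separately in and outside the pair. The difference was -0.32 among the other 6 arrays (10.73 in 4 wildtype and 10.40 in 2 mutants) and -0.27 between mutant 8 and wildtype 7. With the pair as a block, the limma difference was -0.31 at an unadjusted p of 0.0226 and an adjusted p of 0.849. The pair was taken from the expression values themselves, so this unadjusted p is no test of genotype. Over the alternatives of Hils1 the lowest adjusted p was 0.761. The direction of the difference turned when wildtype 7 (0.11) or mutant 3 (0.20) was left out.

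H1fnt was represented by 2 probe sets. On the main one, 1430181_at, it had levels of 7.06, 7.67, 8.02, 7.84 and 9.44 in wildtype 1, 2, 4, 6 and 7, and of 7.29, 7.38 and 9.12 in mutant 3, 5 and 8. The same pair of arrays stood above the rest, by 1.79 on wildtype 7 (3.47-fold) and by 1.79 on mutant 8 (3.45-fold) over the other arrays of their genotype. The other 2 mutant arrays lay within the range of the other 4 wildtype arrays. Means were 8.01 ± 0.88 (SD, n = 5) and 7.93 ± 1.03 (SD, n = 3), and the difference was -0.075 (SE 0.54, 95% interval -1.28 to 1.12). The limma adjusted p was 1.0, and the exact two-sided permutation gave p = 0.821. Leaving out wildtype 7, mutant 3 or mutant 5 turned the direction, to 0.28, 0.24 and 0.20.

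The second H1fnt probe set, 1441954_s_at, whose suffix marks probes shared between transcripts, had levels of 8.07, 8.63, 8.83, 8.80 and 10.77 in wildtype 1, 2, 4, 6 and 7, and of 7.88, 7.998 and 10.20 in mutant 3, 5 and 8. Here the departures were 2.19 (4.55-fold) and 2.26 (4.80-fold). Among the other 6 arrays both mutants lay below all 4 wildtype arrays, whereas on the main probe set they overlapped. The pair left out was taken from the expression values, so this separation is no test of genotype. How many probe sets of the table separate in this way was not counted. On the first probe set the difference was -0.31 among those 6 arrays and -0.32 between mutant 8 and wildtype 7. On the second it was -0.64 and -0.57. Over all 8 arrays the second probe set differed by -0.33 (SE 0.65, 95% interval -1.77 to 1.12).

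Hist1h1t had levels of 6.24, 6.23, 6.32, 6.18 and 6.07 in wildtype 1, 2, 4, 6 and 7, and of 6.002, 6.15 and 6.42 in mutant 3, 5 and 8. All but mutant 8 lay below 6.40, the lowest array median. At such levels the probe set cannot show whether the gene followed Hils1 and H1fnt. Wildtype 7 was the lowest wildtype array and mutant 8 the highest of all 8. The means were 6.21 ± 0.09 (SD, n = 5) and 6.19 ± 0.21 (SD, n = 3), a difference of -0.016 (SE 0.10, 95% interval -0.24 to 0.20, permutation p = 0.964).

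**Figure D1:**
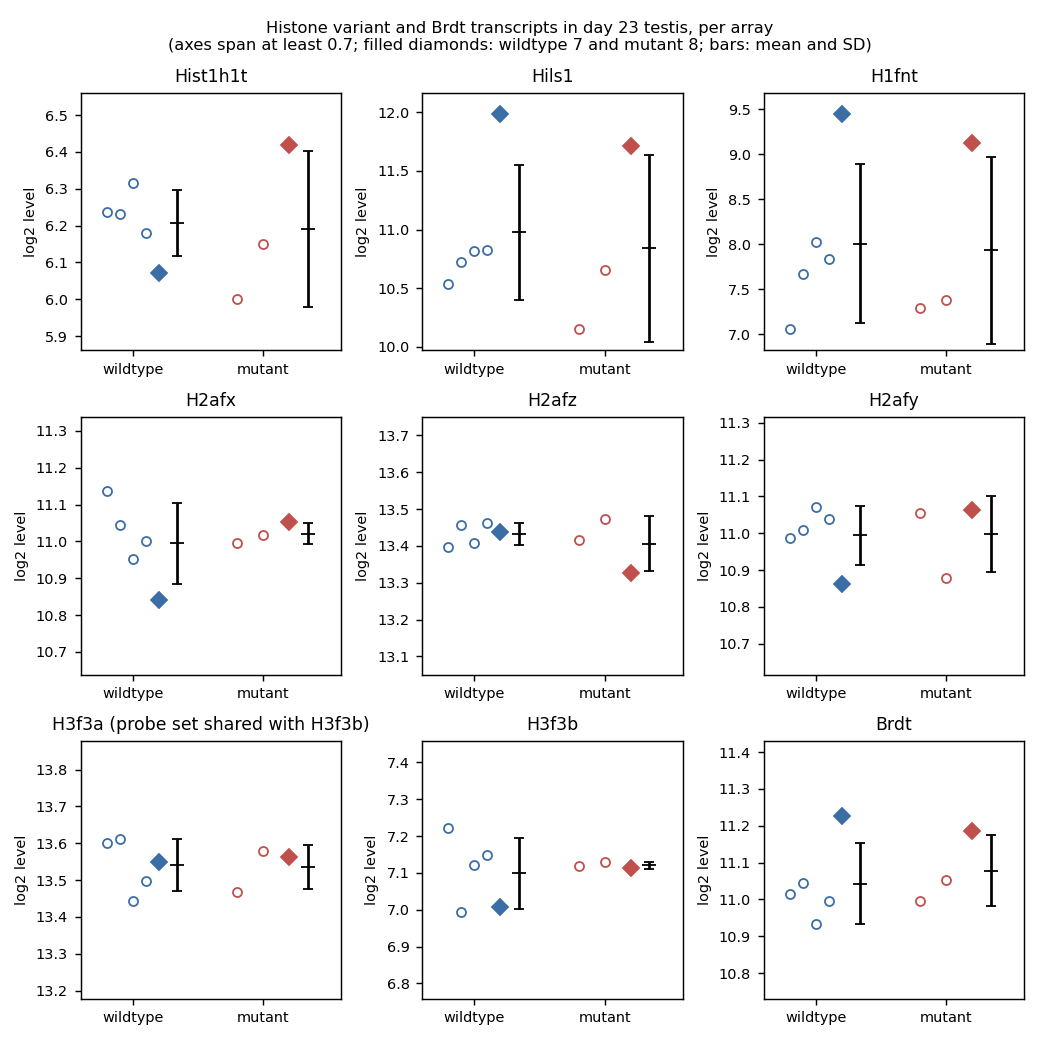
The log2 level (vertical axis) of the main probe set of each of 9 genes is drawn per array, grouped by genotype, with bars for the mean and SD of 5 wildtype and 3 mutant arrays and filled diamonds for wildtype 7 and mutant 8. The diamonds stand well above the other arrays for Hils1 and H1fnt, by 1.26 to 1.79, and the panels' vertical ranges differ.

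The main probe sets of the core histone variants varied little across the arrays. The H2afz probe sets 1438092_x_at and 1438091_a_at, described below, spanned more, at 0.79 and 0.52. Only 3.49% of probe sets in the table spanned over 1, so a span under 1 sets no gene apart. H2afx, H2afz, H2afy, H3f3a and H3f3b, with Hist1h1t and Brdt, had main probe sets that spanned 0.15 to 0.42 over all 8 arrays. Their differences by genotype lay between -0.026 and 0.035, and all their 95% intervals lay within -0.24 and 0.22. For a main probe set of these 7 genes, 0 of 7 had an unadjusted p under 0.05 (3.47% in the table) and 0 of 7 lacked overlap (2.7% in the table). Hist1h1t and H3f3b read low, at 6.002 to 6.42 and 6.99 to 7.22, so their steadiness says little.

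H2afx encodes H2A.X, whose phosphorylated form marks DNA breaks and coats the silenced sex chromosomes in spermatocytes. Its levels were 11.14, 11.04, 10.95, 11.0005 and 10.84 in wildtype 1, 2, 4, 6 and 7, and 10.99, 11.02 and 11.05 in mutant 3, 5 and 8. The mutant values fell inside the wildtype range. The difference was 0.027 (SE 0.08, 95% interval -0.14 to 0.20, permutation p = 0.714).

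H2afy encodes macroH2A1, a variant with a large C-terminal domain that is linked to silent chromatin. Levels of 10.99, 11.01, 11.07, 11.04 and 10.86 in wildtype 1, 2, 4, 6 and 7 faced 11.06, 10.88 and 11.06 in mutant 3, 5 and 8. Again the groups overlapped, with a difference of 0.0047 (SE 0.08, 95% interval -0.16 to 0.17, permutation p = 0.821).

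H2afz encodes H2A.Z, a variant found at promoters that is exchanged into nucleosomes without replication. It had 4 probe sets, and they did not give 1 answer. On the main probe set, 1416415_a_at, levels were 13.40, 13.46, 13.41, 13.46 and 13.44 in wildtype 1, 2, 4, 6 and 7, and 13.42, 13.47 and 13.33 in mutant 3, 5 and 8. The groups overlapped there, with mutant 8 the lowest array and a difference of -0.026 (SE 0.06, 95% interval -0.16 to 0.11, permutation p = 0.536).

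The probe set 1438092_x_at, whose suffix marks probes that may cross-hybridise, gave 11.81, 11.76, 11.81, 11.66 and 11.79 in wildtype 1, 2, 4, 6 and 7, and 11.68, 11.52 and 11.02 in mutant 3, 5 and 8. Mutant 8 lay far below every other array, while mutant 3 lay within the wildtype range. The difference was -0.36 (SE 0.13, 95% interval -0.65 to -0.07), at an unadjusted p of 0.0200 and an adjusted p of 1.0 by limma. It was -0.16 among the 6 arrays without the pair and -0.76 between mutant 8 and wildtype 7. Its range over 16 alternatives was -0.49 to -0.16, with adjusted p of at least 0.794.

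A further H2afz probe set, 1438091_a_at, also names the gene model EG626950. It gave 12.13, 12.07, 12.08, 11.94 and 12.05 in wildtype 1, 2, 4, 6 and 7, and 11.99, 11.90 and 11.61 in mutant 3, 5 and 8. The overlap was narrow, since only mutant 3 lay above the lowest wildtype array. The difference was -0.22 (SE 0.09, 95% interval -0.43 to -0.016), at an unadjusted p of 0.0371 and an adjusted p of 1.0 by limma, and -0.11 among the other 6 arrays. The remaining probe set, 1456032_x_at, which also names EG666634, ranged from 10.66 to 11.15 and differed by -0.15 (SE 0.11). Of these 3 probe sets, 2 carry the cross-hybridisation suffix and 2 name a second gene model, so their values are uncertain for H2afz, and none passed the adjusted threshold.

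H3f3a and H3f3b encode the same protein, histone H3.3, which replaces canonical H3 outside replication and during sex chromosome silencing. Both genes are named together, along with LOC100045490, on 2 probe sets, so these cannot be assigned to either gene. On 1455725_a_at, used for H3f3a for want of one of its own, levels were 13.60, 13.61, 13.44, 13.50 and 13.55 in wildtype 1, 2, 4, 6 and 7, and 13.47, 13.58 and 13.56 in mutant 3, 5 and 8. The groups overlapped, with a difference of -0.0053 (SE 0.07, 95% interval -0.16 to 0.15, permutation p = 0.893).

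The other shared probe set, 1420376_a_at, gave 12.71, 12.72, 12.60, 12.57 and 12.72 in wildtype 1, 2, 4, 6 and 7, and 12.53, 12.49 and 12.37 in mutant 3, 5 and 8. Every mutant array was lower than every wildtype array, the nearest by a narrow margin. It was the single member probe set of 16 whose groups did not overlap, where 2.7% of the table did not. The difference was -0.20 (SE 0.07, 95% interval -0.36 to -0.04), at an unadjusted p of 0.0191 and an adjusted p of 1.0 by limma. Among the 6 arrays without the pair it was -0.14, and between mutant 8 and wildtype 7 it was -0.35. Over 16 alternatives it ranged from -0.23 to -0.14, with adjusted p of at least 0.814.

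H3f3b alone was read by 1430357_at, with levels of 7.22, 6.99, 7.12, 7.15 and 7.01 in wildtype 1, 2, 4, 6 and 7, and of 7.12, 7.13 and 7.11 in mutant 3, 5 and 8. The mutant values lay inside the wildtype range, with a difference of 0.022 (SE 0.07, 95% interval -0.14 to 0.18, permutation p = 0.750). These levels lie not far above the array medians of 6.40 to 6.45, whereas the shared probe sets read 12.37 to 13.61. How well this probe set follows H3f3b is therefore uncertain.

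**Figure D2:**
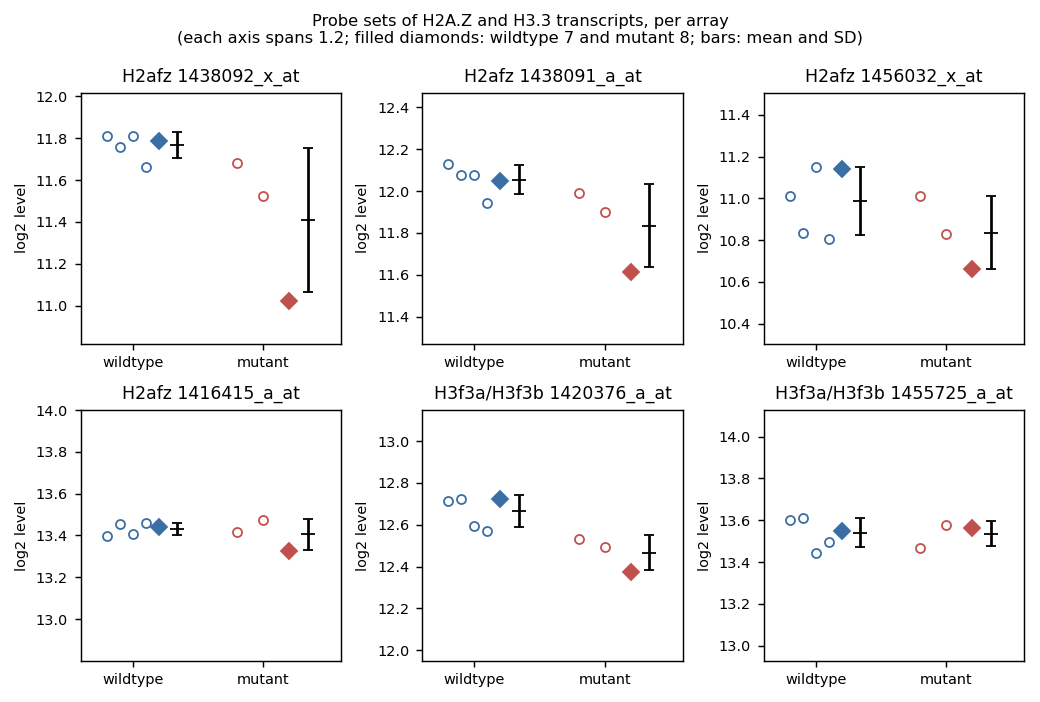
The log2 level (vertical axis, 1.2 units high in each panel) is drawn per array for the 4 probe sets that name H2afz and the 2 that name H3f3a with H3f3b, with bars for the mean and SD of 5 wildtype and 3 mutant arrays. On 1438092_x_at the mutant mean lies 0.36 below the wildtype mean and mutant 8 (filled diamond) is the lowest array, while on 1416415_a_at the means differ by 0.026.

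Brdt encodes the testis-specific bromodomain protein that binds acetylated histones in spermatocytes and spermatids. On its main probe set, 1435502_a_at, levels were 11.02, 11.04, 10.93, 10.99 and 11.23 in wildtype 1, 2, 4, 6 and 7, and 10.996, 11.05 and 11.18 in mutant 3, 5 and 8. Wildtype 7 and mutant 8 were again the 2 highest arrays, though by far less than for the spermatid linker histones, with departures of 0.23 and 0.16 from their genotype. The groups overlapped, and the difference was 0.035 (SE 0.08, 95% interval -0.15 to 0.22, permutation p = 0.679). The other 2 Brdt probe sets differed by -0.09 (SE 0.07) on 1450178_at and by 0.15 (SE 0.10) on 1444667_at. They thus pointed in opposite directions, and neither had an unadjusted p under 0.05. Neither placed the pair above the other arrays, since wildtype 7 was the lowest array on 1444667_at (8.25) and mutant 8 lay inside the range of the others on 1450178_at (10.08).

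Over the 9 main probe sets, 5 were lower and 4 higher in the mutant, with a median difference of -0.0053. The median over all 45101 probe sets was 0.0032, and 48.5% were lower. Both of the arrays that stood apart were above the other 6 for 3 of the 9 (Hils1, H1fnt and, on its main probe set alone, Brdt) and below them for 0, where the table had 8.6% above and 10.3% below. Over all 16 probe sets, 11 were lower and 5 higher, the median was -0.051 and 3 had an unadjusted p under 0.05 (3.47% of the table). Those 3 were a pair for H2afz and the shared H3.3 probe set, none of them a main probe set, and 0 of 16 passed an adjusted p of 0.05 (0% of the table). Probe sets of 1 gene are not separate measurements of the gene's response. Without mutant 8, 0 of the 16 had an unadjusted p under 0.05, where the table then had 5.87%. Among the 6 other arrays 2 had, Hils1 and the second H1fnt probe set, and with the pair as a block 5 had, where the table then had 6.55% and 5.86%. Both settings rest on a pair taken from the expression values, so these counts are no test of genotype. The exact permutation over 56 splits into 5 and 3 arrays gave p from 0.536 to 0.964 for the 9 main probe sets and could not go below 0.0357.

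**Figure D3:**
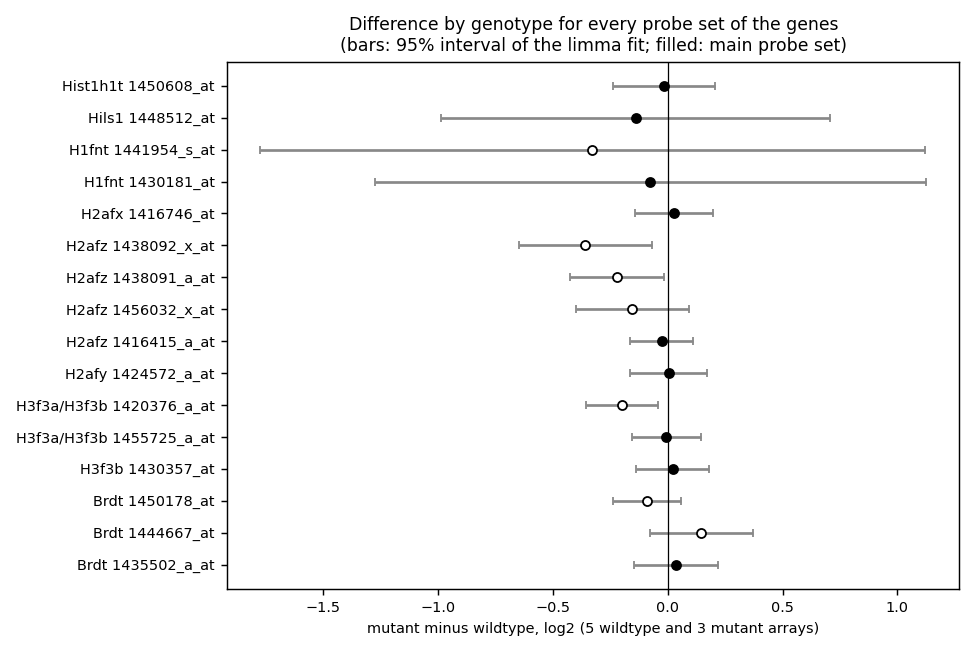
The difference of mutant minus wildtype in log2 level (horizontal axis) is drawn with its 95% interval from the limma fit for each of the 16 probe sets, with filled circles for main probe sets. Intervals reach from -1.77 to 1.12 for H1fnt and from -0.99 to 0.71 for Hils1, are far narrower for the other genes, and leave out 0 for 3 probe sets of H2afz and H3.3.

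The genes whose level followed Hils1 and H1fnt most closely were sought among 913 main probe sets that spanned over 1. Likeness was the root mean square difference over the 8 arrays after centring each gene on its own mean. Closest to Hils1 were Tssk2, a testis-specific serine kinase that is also among the spermatid markers (0.042), Hsfy2, a heat shock transcription factor family member (0.043), and 1700065I17Rik (0.051). Their departures ran from 1.13 to 1.27 on wildtype 7 and from 1.26 to 1.36 on mutant 8, values that the choice by likeness itself fixes. Closest to H1fnt were Cypt12, a cysteine-rich protein gene of the perinuclear theca (0.11), 1700012O15Rik (0.12) and Fam154a (0.13). Hils1 and H1fnt differed from each other by 0.30 on this measure.

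The later replacement of histones is carried out by the transition proteins and protamines. All 5 measured genes of that group, Tnp1, Tnp2, Prm1, Prm2 and Prm3, were higher on wildtype 7 and mutant 8 than on the other 6 arrays, with median departures of 3.21 and 3.09. Tnp1 departed by 3.29 and 3.09 and Prm3 by 1.57 and 1.74. By genotype all 5 were lower in the mutant, with a median difference of -0.27, 0 of 5 at an unadjusted p under 0.05, and 95% intervals that reached from -2.71 to 2.16.

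**Figure D4:**
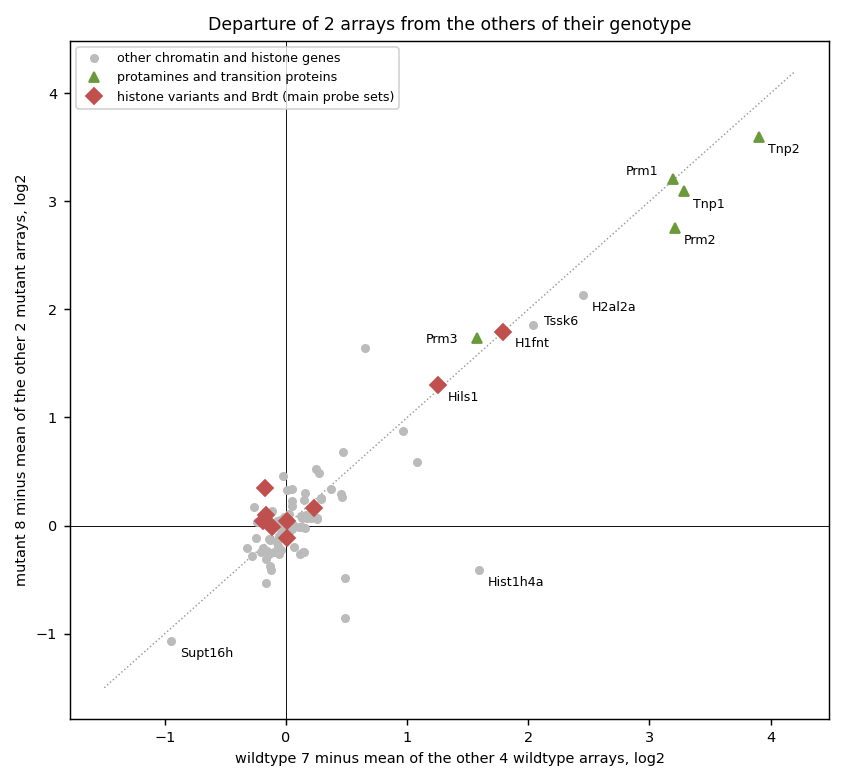
The departure of wildtype 7 from the mean of the other 4 wildtype arrays (horizontal axis, log2) is plotted against the departure of mutant 8 from the mean of the other 2 mutant arrays (vertical axis, log2), with each point a gene and the dotted line marking equal departures. On the horizontal axis Hils1 lies at 1.26 and H1fnt at 1.79, both near the line and away from the other members around 0, while the transition proteins and protamines run from 1.57 (Prm3) to 3.90 (Tnp2).

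Other testis and minor histone genes gave 11 measured of 13 listed, 6 lower and 5 higher in the mutant, with a median of -0.011. Macro-H2A2 (H2afy2) differed by -0.011 (SE 0.08), H2A.V (H2afv) by -0.08 (SE 0.08), H1.0 (H1f0) by 0.10 (SE 0.08) and H1x (H1fx) by 0.11 (SE 0.10). H2al2a, an H2A variant of late spermatids read through the older symbol 1700113O17Rik, was named after its values were seen. It departed by 2.45 on wildtype 7 and 2.14 on mutant 8, from levels of 5.93 to 6.69 on the other arrays, and differed by -0.034 (SE 0.67) by genotype. Of the 11, 2 were above the other arrays on the pair, H2al2a and Hist2h3c1, where the table had 8.6%.

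Replication-dependent histone genes, which make canonical histones in S phase and whose messages mostly lack a poly(A) tail, had 10 of 20 listed genes measured. Among them 4 were lower and 6 higher, with a median of 0.0085. Hist1h1c differed by 0.016 (SE 0.13), Hist1h1e by 0.09 (SE 0.09), Hist1h2ad by 0.07 (SE 0.12) and Hist1h2bc by -0.0038 (SE 0.23). The pair was above the other arrays for 2 and below them for 2, without a common direction, where the table had 8.6% and 10.3%.

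Histone chaperones and exchange factors, which put in or take out histones, had 21 of 23 measured, 10 lower and 11 higher, with a median of 0.0024. The H3.3 chaperone Hira differed by -0.034 (SE 0.06), its partners Ubn1 by 0.0039 (SE 0.12) and Cabin1 by 0.0024 (SE 0.09), and Asf1a by -0.05 (SE 0.07). Hira spanned 0.09 over the 8 arrays, the least of this list, in which spans reached 1.84. The pair was above the other arrays for 3 and below them for 2, where the table had 8.6% above and 10.3% below.

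Writers, readers and erasers of histone acetylation, the mark that BRDT reads, had 16 of 16 measured, 12 lower and 4 higher, with a median of -0.010. The pair was above the other arrays for 1 and below them for 3, where the table had 8.6% and 10.3%. The acetyltransferases Kat5 and Kat8 (read as Myst1) differed by -0.07 (SE 0.10) and -0.0044 (SE 0.07), the KAT5 partner Epc1 by -0.017 (SE 0.06) and Ep300 by -0.048 (SE 0.08). Hdac6, a mainly cytoplasmic deacetylase named after its values were seen, was the 1 of 16 genes whose groups did not overlap (2.7% of the table). Its levels were 10.56 to 10.74 in wildtype and 10.79 to 10.90 in mutant. Its difference was 0.20 (SE 0.07), with an unadjusted p of 0.0182 and a limma adjusted p of 1.0.

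Ubiquitination and methylation factors of male germ cells had 14 of 14 measured, 8 lower and 6 higher, with a median of -0.0063. The pair was above the other arrays for 5 and below them for 2, where the table had 8.6% above and 10.3% below. Rnf8, a ubiquitin ligase of histones, was read by a probe set that names several genes and is given no value. Rnf168, which acts after it, differed by 0.024 (SE 0.09), and the ubiquitin-conjugating enzymes Ube2a and Ube2b by 0.06 (SE 0.13) and -0.11 (SE 0.08). Condensation factors of spermatids had 9 of 9 measured, 6 lower and 3 higher, with a median of -0.07. The pair was above the other arrays for 3 and below them for 1. Tssk6, a kinase needed for the exchange of histones, differed by -0.08 (SE 0.57), the proteasome activator Psme4 by -0.07 (SE 0.07), and the poly(ADP-ribose) polymerases Parp1 and Parp2 by 0.05 (SE 0.09) and 0.014 (SE 0.09). Tssk6 departed by 2.04 on wildtype 7 and 1.85 on mutant 8, from levels of 5.33 to 6.07 on the other arrays. These lie below the array medians, so for Tssk6, as for part of the arrays with H2al2a, the baseline is not shown to be above background and the departure is uncertain.

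In these lists of other chromatin genes, protamines included, 0 genes passed an adjusted p of 0.05 in the limma fit. Only 1 gene, Hdac6, had an unadjusted p under 0.05, where 3.47% of the table had. The spermatid markers, which share 4 genes with the protamine list, were lower in the mutant for 14 of 14, with a median of -0.13 and 0 of 14 at an unadjusted p under 0.05. Counts by direction were also unequal for markers of other cells, where 48.5% of the table was lower in the mutant. There were 0 adjusted calls in any list. Of the spermatocyte markers 9 of 12 were lower, 2 of them at an unadjusted p under 0.05 (3.47% of the table). Sycp1, named after its values were seen, had groups without overlap (2.7% of the table). Among spermatogonia markers 7 of 9 were higher, among Sertoli cell markers 8 of 9, and among Leydig cell markers 5 of 6. In the same order, 2, 1 and 1 genes of these lists had an unadjusted p under 0.05. Genes of a list were read on the same 8 arrays and are not separate measurements, so these counts do not establish a lean by genotype. The mean of the Leydig cell markers was 9.98, 9.52 and 9.40 on mutant 3, 5 and 8, against 9.38 to 9.69 in wildtype. Of the fat markers 5 of 7 were lower. The part that the cells sampled, the fat markers and the 3′ to 5′ control differences on wildtype 7 and mutant 8 have in the levels of Hils1 and H1fnt was not tested.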

How the data were processed

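The deposited table held log2 levels for 45101 probe sets on 8 arrays. Per the study's methods, the authors made them with Affymetrix software, RMA background correction and quantile normalisation. Software versions and the genome build of the annotation were not given in the sources used here. The tables also held the authors' own comparison (group means, fold changes, p-values), which was not used.

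Groups came from the sample titles. The members and all gene lists were chosen with earlier results of these data known. Nothing in the labels says that replicates are separate animals, so p-values measure only the spread between these samples. Precision is limited by how few arrays there are. All probe sets were fitted without a filter in R 4.3.3 by limma 3.58.1 (lmFit, then eBayes). Two-sided p-values were adjusted by Benjamini-Hochberg over the table. Main probe sets were also tested by exact two-sided permutation of the arrays. The fit was first tested on simulated data. Tables and figures were made in Python 3.11.15 (numpy 2.4.6, pandas 2.3.3, scipy 1.17.1, matplotlib 3.10.9).

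A gene's main probe set names 1 gene where possible, lacks the suffixes _s_at and _x_at where possible, and then has the highest mean level. List genes were matched by symbol, otherwise by Entrez ID through RefSeq. Named genes were all members, the first 4 measured genes of each list and the 3 likest genes of each member that spanned over 1. Those outside this rule are said to be so, apart from Prm3 and Hist2h3c1, which are also outside it. Alternatives were leaving out each array, wildtype 7 and mutant 8 as a block, the 6 other arrays only, centring on medians, repeated quantile normalisation, an offset of 50 on the linear scale, an intensity trend with a robust prior, array weights, only probe sets above the median level, and other probe sets. The block follows the expression values and no label. The count of member probe sets at an unadjusted p under 0.05 by setting was added after seeing the data.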

Additional observations from a re-analysis of the deposited data

Results flagged for a closer look

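Among the 5 wildtype arrays, 29 measures (levels of member probe sets and means of gene lists) were screened by Dixon's test for 1 array lying apart. Of these 7 stood out, 6 of them on wildtype 7. For independent measures, chance gives about 1 in 20, or 1.45 here. These measures were all read on the same arrays, and several share genes. Wildtype 7 was also already known from these data to stand apart. The count of 7 can therefore not be weighed against 1.45. The 3 mutant arrays were too few for the same examination.

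Hils1 was at 11.98 on wildtype 7, against 10.83 on the nearest wildtype array. The H1fnt probe set 1441954_s_at was at 10.77 there, against 8.83. The mean of the testis and minor histone genes was 8.28 against 8.09, and that of the condensation factors of spermatids 9.85 against 9.53. In these lists the median departure of wildtype 7 was only -0.028 and 0.14, against 2.45 for H2al2a and 2.04 for Tssk6. The means thus do not show a rise across either list. The mean of the spermatid markers was 10.92 against 9.27. The Leydig cell markers were at 9.69 against 9.44. On wildtype 6 the mean of the histone chaperones was 9.39, a low value against 9.44 on the nearest array. Mutant 8 lay at 11.71 for Hils1 and at 10.20 for H1fnt on 1441954_s_at, and it stood above the other mutant arrays on these too. The cause was not tested.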

How the results depend on the processing

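No paired analysis was possible because the labels do not say which samples shared a litter. With an adjusted p of 0.05, 0 probe sets passed under the alternatives run, except with wildtype 7 and mutant 8 as a block, which gave 1. The count of 1564 at an unadjusted p under 0.05 became 707 when dim probe sets were left out and fewer tested, 2956 with the 6 other arrays only and 2644 with the block. Leaving out 1 array it ran from 1220 to 2649, the last without mutant 8. Under 143 alternatives on the main probe sets of the 9 members, 0 adjusted calls were made and 23 turned the direction of a difference, at least 1 for each member. Leaving out 1 array, the difference ran from -0.13 to 0.078 for Hist1h1t, -0.57 to 0.20 for Hils1, -0.67 to 0.28 for H1fnt, -0.012 to 0.062 for H2afx, -0.060 to 0.013 for H2afz, -0.028 to 0.065 for H2afy, -0.030 to 0.029 for H3f3a, -0.0043 to 0.053 for H3f3b and -0.019 to 0.081 for Brdt. With the 6 other arrays only, H2afx turned to -0.027, H2afz to 0.015, H2afy to -0.060 and the median of the acetylation list to 0.016. With array weights H2afy turned to -0.039, and with the block the replication-dependent histone median turned to -0.0023. On its shared probe sets H3f3b read -0.20 and -0.0053, and on 1450178_at Brdt read -0.090. The cause was not tested.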
